A study of Mus musculus with 6 samples.

Results

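Expression of 8 genes that cytokines induce through JAK-STAT and related signalling, leaving aside the SOCS family of inhibitors, was examined in mouse tibialis anterior muscle: Bcl3, Bcl6, Pim1, Cebpb, Cebpd, Myc, Mcl1 and Irf1. They were taken by name, as the probe sets whose only symbol in the platform annotation is one of these genes, which gave 9 probe sets of 35557 in all and 8 genes of 19938 named ones. Each gene had 1 probe set except Irf1, which had 2. Muscle was profiled on 6 Affymetrix arrays, 3 from animals carrying MLC-SOCS-3 on C57Bl6J and 3 from C57Bl6J animals labelled control. All mice were 11 weeks old and had been starved for 6 h before the muscle was removed and frozen, so the values describe starved muscle in both groups. Neither the sex nor what MLC stands for is given in the sources used here, and nothing says that the 3 replicates of a group are separate animals, so a p-value here reflects only how far these samples scatter, and that scatter may be technical.

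Cytokines of the interleukin-6 family and growth hormone bind receptors that activate JAK kinases. The kinases phosphorylate STAT factors, which enter the nucleus and switch on target genes, among them SOCS3, an inhibitor that shuts the same receptors down. The targets outside the SOCS family carry the response onward: some are transcription factors or their partners (Irf1, Cebpb, Cebpd, Bcl3, Bcl6, Myc), 1 is a kinase that supports survival and growth (Pim1) and 1 is an inhibitor of mitochondrial cell death (Mcl1). Several of them also respond to signals other than STATs. In skeletal muscle Cebpb and Cebpd are known for their response to glucocorticoids and injury.

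STAT dimers recognise the palindrome TTCNNNGAA, called the GAS element, so the bases before each start site were searched for it (both strands read alike, since the motif is its own reverse complement). RefSeq promoter sequences of GRCm38.p6 covered 6 of the 8 genes, with 9 start sites, and the 250 bases before each start were read. The motif lay before 3 of the 9 starts, 1 of Irf1 and both of Bcl6, and the E-box CACGTG, the letters that MYC with its partner MAX binds, lay before 1 start of Bcl6 and 1 of Pim1. Of all 32851 start sites in the table, 7.02% held TTCNNNGAA and 6.02% held CACGTG in the same window, and the C/EBP palindrome TTGCGCAA, found before none of the 9, lay before 0.164%. The 3 windows that held TTCNNNGAA are given 5′ to 3′ on the gene's strand, with matches to TTCNNNGAA in capitals. A match describes the letters only.
Irf1, chr11:53769764-53770013, plus strand: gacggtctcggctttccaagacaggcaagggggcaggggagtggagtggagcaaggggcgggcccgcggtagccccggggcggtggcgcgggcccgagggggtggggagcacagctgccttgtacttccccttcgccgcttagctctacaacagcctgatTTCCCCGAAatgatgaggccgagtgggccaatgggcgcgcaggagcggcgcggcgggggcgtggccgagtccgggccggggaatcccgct
Bcl6, chr16:23988853-23989102, minus strand: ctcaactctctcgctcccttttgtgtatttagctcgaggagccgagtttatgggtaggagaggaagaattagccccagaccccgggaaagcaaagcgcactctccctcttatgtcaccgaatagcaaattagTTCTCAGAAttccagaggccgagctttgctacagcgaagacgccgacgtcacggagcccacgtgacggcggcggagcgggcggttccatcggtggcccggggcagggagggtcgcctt
Bcl6, second listed start, chr16:23981284-23981533, minus strand: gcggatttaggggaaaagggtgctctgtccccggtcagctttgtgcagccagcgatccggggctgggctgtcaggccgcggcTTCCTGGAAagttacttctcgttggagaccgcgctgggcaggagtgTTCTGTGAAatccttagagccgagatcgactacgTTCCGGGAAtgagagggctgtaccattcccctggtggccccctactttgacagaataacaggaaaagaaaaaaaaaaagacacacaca
In Irf1 the match TTCCCCGAA began 90 bases before the start. Bcl6 had TTCTCAGAA at 118 bases before its first listed start, and TTCCTGGAA, TTCTGTGAA and TTCCGGGAA at 168, 122 and 88 bases before the other. The first of these windows of Bcl6 also held CACGTG, at 60 bases before the start, and did not overlap the GAS match.

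Array medians ran from 5.98 to 6.04 on the log2 scale and the median probe set averaged 5.99. Socs3 itself did not mark the group labelled MLC-SOCS-3 by a higher level. Its brighter probe set read 7.07, 7.12 and 7.25 there, against 7.37, 7.41 and 7.43 on control arrays (difference -0.26, limma adjusted p = 0.80), and the sources used here do not say whether the probes lie in the transgene. Groups are therefore named as labelled throughout, and every direction below rests on those labels. Of the other feedback inhibitors of the pathway, Cish differed by -1.37 ± 0.27 (SE), Socs2 by -1.15 ± 0.17 on its brighter and -0.38 ± 0.11 on its other probe set, and Socs1 by -0.084 ± 0.14; none passed (limma adjusted p from 0.69 up). The muscle markers fitted the label of the tissue, with all 13 myofibre genes above the median probe set and a mean log2 level of 12.81 to 12.85 on arrays labelled MLC-SOCS-3 and 12.84 to 12.88 on control arrays.

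None of the 8 genes passed the test. Limma, adjusted over all probe sets, called 0 of the 9 probe sets at an adjusted p under 0.05, as it called 0% of all 35557. At an unadjusted p under 0.05 it picked 1 of the 9, Bcl3, against 5.92% of all probe sets (3.4% when only lower ones are counted). Taking 1 probe set per gene, 4 genes had a positive and 4 a negative difference, with a median of -0.034, where all 19938 genes had a median of -0.016. The groups did not overlap for 2 of the 9 probe sets, those of Bcl3 and the brighter one of Irf1, both lower on arrays labelled MLC-SOCS-3. Over all probe sets 11.8% were apart in this way, 6.76% with MLC-SOCS-3 lower and 5.04% with it higher. By mean level, Bcl3 and the brighter Irf1 probe set stood at percentiles 56.9 and 60.7 of all probe sets. The second Irf1 probe set stood at 55.2, and all other members at 71.9 or above. Without detection calls, how far the lower ones lie above background cannot be told.

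**Figure D1:**
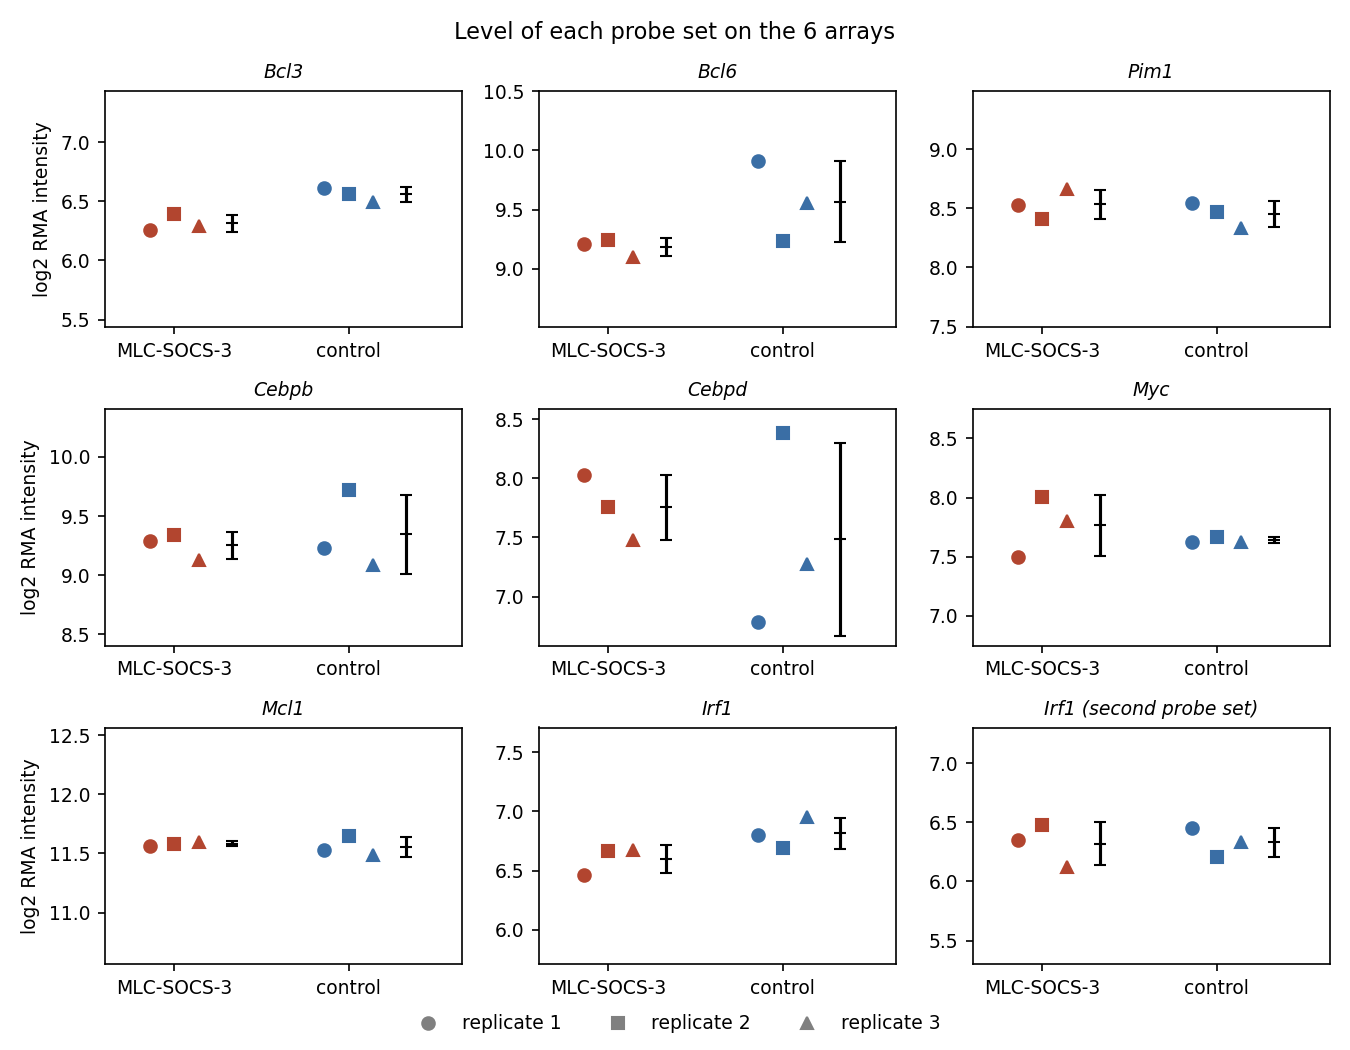
Log2 RMA intensity of the 9 probe sets on each array, with arrays labelled MLC-SOCS-3 in red and control arrays in blue; marker shapes give the replicate number and the black bars the mean ± SD of 3 arrays. Every panel spans 2 log2 units. The 3 control arrays of Cebpd run from 6.79 to 8.38, while Mcl1 keeps between 11.48 and 11.64 on all 6.

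Bcl3 encodes a nuclear partner of the NF-kB subunits p50 and p52 and is a target of STAT3. Its probe set (10560685, chromosome 7) read 6.26, 6.39 and 6.30 on arrays labelled MLC-SOCS-3, against 6.62, 6.56 and 6.49 on control arrays. All 3 values of the first group lay under all 3 of the second, and the replicates kept close together (SD 0.071 and 0.061, n = 3 each). The difference was -0.24 ± 0.071 (SE, 95% interval -0.42 to -0.068), a 1.18-fold lower intensity, with an unadjusted limma p of 0.0144 and an adjusted p of 0.80. An exact two-sided permutation test of the 6 values gave p = 0.1, the smallest that 3 arrays against 3 allow. Leaving out any 1 array gave differences between -0.28 and -0.21, so no single array sets the sign.

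Irf1 encodes a transcription factor that interferon gamma induces and that activates antigen presentation genes. Its brighter probe set (10376060, chromosome 11), whose annotation includes RefSeq transcripts, read 6.46, 6.66 and 6.67 on arrays labelled MLC-SOCS-3, against 6.80, 6.69 and 6.95 on control arrays. The groups did not overlap, but the gap between the highest array labelled MLC-SOCS-3 and control replicate 2 was small beside the spread within either group. The difference was -0.21 ± 0.10 (SE, 95% interval -0.46 to 0.032, limma adjusted p = 0.83), and the exact permutation p was 0.1. The second probe set (10385870), which rests on 1 cDNA accession, read 6.35, 6.48 and 6.12 against 6.46, 6.21 and 6.33 on control arrays. Its groups overlapped, with a difference of -0.014 ± 0.12 (95% interval -0.30 to 0.27, adjusted p = 0.99). The 2 probe sets of Irf1 therefore gave estimates of unlike size, but their 95% intervals overlap. The mean of the 2 probe sets differed by -0.11 (limma adjusted p = 0.87).

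Genes known to be induced by IRF1 or interferon gamma were read as a list beside it. Of the 18 measured, none passed over all probe sets, 2 had positive and 16 negative differences, and the median was -0.11, where all genes had -0.016 and 56.2% of genes were negative. With any 1 control array left out, 15 of 18 were negative, with medians from -0.13 to -0.096. No array labelled MLC-SOCS-3 was left out for this list. On MLC-SOCS-3 replicate 3, 8 of the 18 had their lowest value, where 17.9% of all genes did. At an unadjusted p under 0.05 the list held 1 gene, lower (4.86% of all genes met this in either direction). That gene was Psmb10, an immunoproteasome subunit, which read 7.24, 7.23 and 7.33 on arrays labelled MLC-SOCS-3 and 7.45, 7.44 and 7.41 on control arrays. Psmb8, another such subunit, differed by -0.16 ± 0.082 (SE), the guanylate-binding protein gene Gbp3 by -0.38 ± 0.17 and Nlrc5, an activator of MHC class I genes, by -0.11 ± 0.060. Adjusted p-values of these 4 genes ran from 0.82 to 0.86. Of 11 lymphocyte markers none passed and 7 were negative, near the share among all genes, with a median of -0.16. At an unadjusted p under 0.05 there were 2, both lower. Their mean log2 level was 4.47 to 4.59 on arrays labelled MLC-SOCS-3 against 4.61 to 4.70 on control arrays, and only 1 of the 11 lay above the median probe set. Of 14 macrophage markers none passed, 10 were positive and 4 negative, and 2 reached an unadjusted p under 0.05, both higher. The macrophage markers had a mean log2 level of 6.63 to 6.94 on arrays labelled MLC-SOCS-3 and 6.51 to 6.85 on control arrays. The part of these cells in the values of Irf1 was not tested, and in whole muscle fewer cells of a type and less RNA per cell cannot be told apart.

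Bcl6 encodes a transcriptional repressor that binds sites much like those of STATs and that STAT5 is known to repress. Its probe set (10438738, chromosome 16) read 9.21, 9.24 and 9.10 on arrays labelled MLC-SOCS-3, against 9.91, 9.23 and 9.55 on control arrays. The arrays labelled MLC-SOCS-3 were nearly alike, while the controls spread over most of the range, and control replicate 2 lay among the other group. The SD was 0.074 in the first group and 0.34 in controls (n = 3 each). The difference, -0.38 ± 0.17 (SE, 95% interval -0.81 to 0.039), was the most negative of the 8 genes and did not pass (limma adjusted p = 0.83). It was -0.21 without control replicate 1 and -0.55 without control replicate 2, so its size depends on which controls enter, while its sign held. Cish and both probe sets of Socs2 had negative differences, as given above, and did not pass either, although STAT5 induces these genes and represses Bcl6. STAT5 activity was not measured on these arrays, and its part in these values was not tested.

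**Figure D2:**
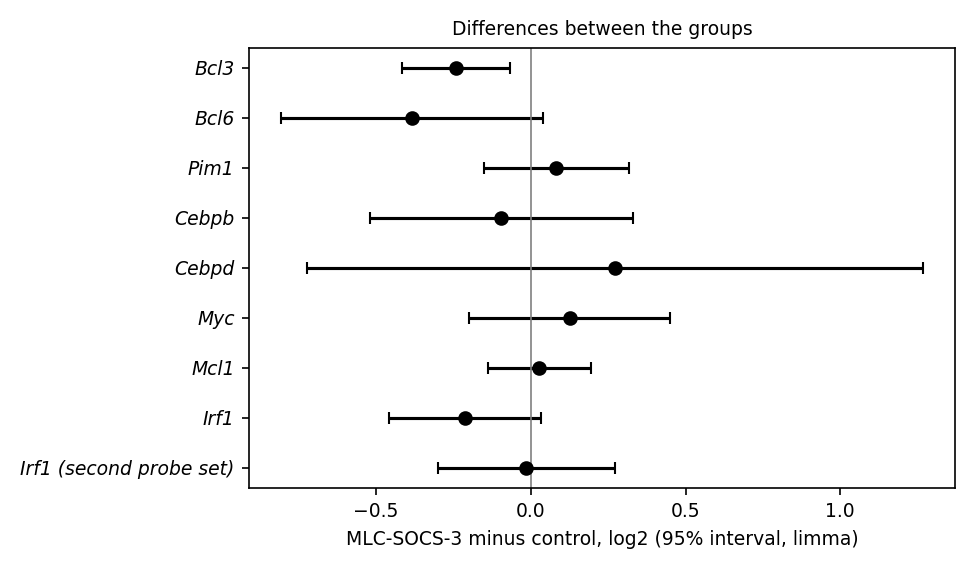
Difference between arrays labelled MLC-SOCS-3 and control arrays in log2 units for the 9 probe sets, with the 95% interval of the limma fit. The interval of Bcl3 alone leaves out 0, before adjustment; that of Cebpd runs from -0.72 to 1.27.

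The C/EBP factors Cebpb and Cebpd are activated early by inflammatory cytokines and glucocorticoids, and Cebpd is a direct STAT3 target. Cebpd (probe set 10433885, chromosome 16) read 8.02, 7.76 and 7.48 on arrays labelled MLC-SOCS-3, against 6.79, 8.38 and 7.28 on control arrays. Its lowest and its highest value were both controls, and the other group lay between them. The range over the 6 arrays, 1.60, is a 3.02-fold range of intensity and the widest of the 8 genes. Its difference of 0.27 ± 0.41 (SE, 95% interval -0.72 to 1.27, limma adjusted p = 0.93) is smaller than the SD among controls, 0.82, and does not settle a direction: it was -0.076 without control replicate 1 and 0.72 without control replicate 2.

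Cebpb (probe set 10478890, chromosome 2) read 9.29, 9.34 and 9.13 on arrays labelled MLC-SOCS-3, against 9.23, 9.72 and 9.09 on control arrays. Control replicate 2 was again the highest of all, and the other 5 arrays lay close together. The difference was -0.095 ± 0.17 (SE, 95% interval -0.52 to 0.33, adjusted p = 0.95), and it was 0.093 without control replicate 2.

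Within-group spread was large for the level in Cebpd, Cebpb and Bcl6, but not in every member. The SD within groups exceeded that of 99.6% of the 1778 probe sets of like mean level for Cebpd, 96.3% for Cebpb and 96.3% for Bcl6. For Bcl3 it exceeded that of only 9.34%, and for Mcl1 51.9%. Myc stood at 84.1%, Pim1 at 71.5%, and the brighter and second probe sets of Irf1 at 48.0% and 57.8%.

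**Figure D3:**
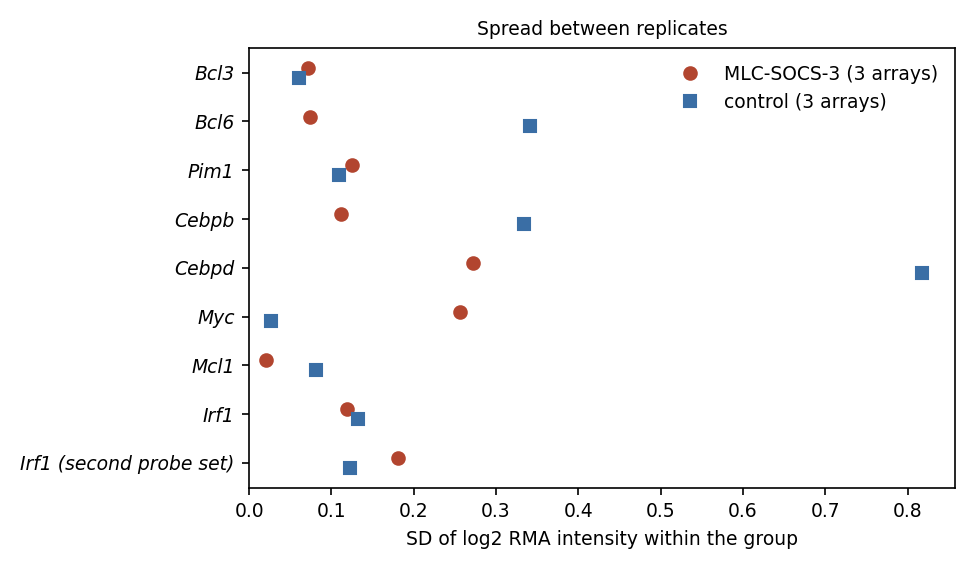
SD of the log2 RMA intensity over the 3 arrays of each group, circles for MLC-SOCS-3 and squares for control, for the 9 probe sets. Controls are wider for Cebpd (0.27 in MLC-SOCS-3 and 0.82 in controls), Bcl6 and Cebpb, and narrower for Myc (0.26 in MLC-SOCS-3 and 0.027 in controls).

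The array on which Cebpd and Cebpb were highest, control replicate 2, was also the highest for many genes that glucocorticoids induce. Of 17 such genes measured, 14 had their highest value on control replicate 2, where 15.5% of all genes did. The lowest value lay on control replicate 1 or 3 for 13 of the 17. These were 6 on replicate 1 and 7 on replicate 3, where 12.1% and 13.8% of all genes had theirs. The arrays hold no measure of the hormone. Whether glucocorticoids, starvation or another signal play a part in this pattern was not tested. Fkbp5, a co-chaperone of the glucocorticoid receptor, read 9.27, 9.03 and 9.06 on arrays labelled MLC-SOCS-3, against 8.56, 9.62 and 8.63 on control arrays. Ddit4, an inhibitor of mTOR signalling, read 9.23, 9.26 and 8.62 against 8.08, 10.25 and 8.70. Between the groups the list showed little: 10 genes were positive and 7 negative, the median was 0.029 and none passed, with 0 of 17 even at an unadjusted p under 0.05. That balance depends on which controls enter: 16 of the 17 were positive without control replicate 2 (median 0.20), 6 without control replicate 1 (median -0.0059) and 8 without control replicate 3 (median -0.048). Its members with the smallest p were Pdk4, an inhibitor of pyruvate dehydrogenase, at 0.16 ± 0.077 (SE), the transcription factor Foxo1 at 0.17 ± 0.18, the EGF receptor inhibitor Errfi1 at -0.19 ± 0.21 and the metallothionein Mt2 at 0.43 ± 0.53.

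Immediate-early genes, which respond within minutes to stimuli and to handling, were likewise highest on control replicate 2, for 13 of 19, where 15.5% of all genes were. Here the groups leaned one way, with 16 of 19 genes negative (56.2% of all genes were) and a median of -0.25. Of the 19, 5 were apart and lower (7.76% of all genes were), although none passed over all probe sets. Dusp1, a phosphatase that switches off MAP kinases, differed by -0.81 ± 0.21 (SE), the transcription factor Egr3 by -0.39 ± 0.11, the nuclear receptor Nr4a1 by -0.44 ± 0.14 and Junb by -0.30 ± 0.13, with adjusted p-values between 0.80 and 0.83. The mean deviation of this list from its 6-array mean was -0.26, -0.12 and 0.028 on arrays labelled MLC-SOCS-3, against 0.021, 0.48 and -0.15 on control arrays, so the groups overlap. Without control replicate 2, 11 of the 19 were negative, with a median of -0.060. Whether sampling of the animals plays a part in Cebpb and Cebpd was not tested.

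**Figure D4:**
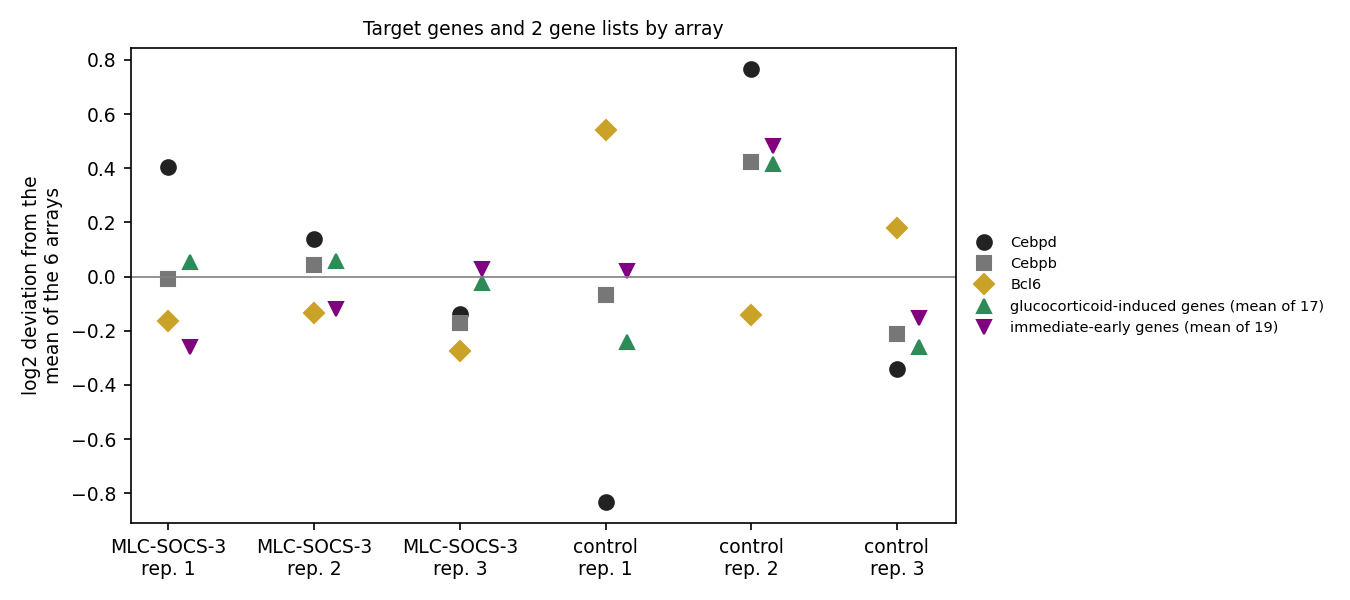
Log2 deviation from the 6-array mean on each array, for Cebpd, Cebpb and Bcl6 and for the mean of 17 glucocorticoid-induced and 19 immediate-early genes. On control replicate 2 both C/EBP genes and both lists are at their highest (lists 0.42 and 0.48), while Bcl6 is highest on control replicate 1.

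The genes most like these members over the 6 arrays were sought among 1049 genes above the median probe set with a range of at least 0.5, as a description over arrays that share groups and handling. Closest to Cebpd were Sgk1, a kinase induced by glucocorticoids (Pearson r = 0.99, Spearman rho = 1), Depp1, a target of FOXO factors (r = 0.98), and Arrdc3, an arrestin-domain adaptor (r = 0.97). Sgk1 read 10.82, 10.72 and 10.65 on arrays labelled MLC-SOCS-3, against 10.25, 11.05 and 10.55 on control arrays, in the same order as Cebpd. Closest to Cebpb were Il6ra, the interleukin-6 receptor alpha chain (r = 0.99, rho = 1), Zfp36, which destabilises cytokine mRNAs (r = 0.98), and Nfkbiz, a nuclear NF-kB regulator (r = 0.97). Il6ra read 7.20, 7.28 and 7.11 on arrays labelled MLC-SOCS-3, against 7.16, 7.55 and 7.01 on control arrays. For both members the likeness leans on control replicate 2, the highest array for all of Sgk1, Depp1, Il6ra, Zfp36 and Nfkbiz, while Arrdc3 was as high on MLC-SOCS-3 replicate 1 (9.57 there and 9.56 on control replicate 2). Bcl6 was most like Car7, a carbonic anhydrase (r = 0.99), Pcdh1, a protocadherin (r = 0.96), and Fxyd6, a regulator of the sodium pump (r = 0.96, rho = 1), all 3 highest on control replicate 1.

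Myc, the growth-promoting transcription factor, showed the opposite spread. Its probe set (10424400, chromosome 15) read 7.49, 8.004 and 7.80 on arrays labelled MLC-SOCS-3, against 7.62, 7.67 and 7.63 on control arrays. Controls were nearly alike, and arrays labelled MLC-SOCS-3 lay on both sides of them. The difference was 0.13 ± 0.13 (SE, 95% interval -0.20 to 0.45, limma adjusted p = 0.90). It was 0.26 without MLC-SOCS-3 replicate 1 and 0.0066 without MLC-SOCS-3 replicate 2. Most like it over the arrays were Mindy2, a deubiquitinase (r = 0.97, rho = 1), Mmp9, a matrix protease (r = 0.95), and Pdia3, a protein disulphide isomerase (r = 0.95).

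Of 16 known targets of MYC, mostly in ribosome production, translation and metabolism, 10 were positive and 6 negative, with a median of 0.025 and none passing. Odc1, the first enzyme of polyamine synthesis, was lower, at 10.71, 10.50 and 11.00 on arrays labelled MLC-SOCS-3, against 11.35, 11.41 and 11.09 on control arrays (difference -0.55 ± 0.15, adjusted p = 0.80). Nop58, a protein of nucleolar RNA particles, stood apart on the other side, at 7.86, 7.94 and 8.003 against 7.74, 7.73 and 7.72 (difference 0.20 ± 0.066, adjusted p = 0.81). The nucleolar protein gene Ncl and the nucleotide kinase gene Nme1 both differed by 0.12, with SE 0.066 and 0.076.

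Pim1, a serine/threonine kinase that STAT3 and STAT5 induce, read 8.53, 8.41 and 8.66 on arrays labelled MLC-SOCS-3 (probe set 10443527, chromosome 17), against 8.55, 8.47 and 8.33 on control arrays. The groups overlapped, and the difference was 0.082 ± 0.096 (SE, 95% interval -0.15 to 0.32, adjusted p = 0.91). Mcl1, a BCL2 relative that holds back mitochondrial cell death, was the steadiest of the 8, with 11.56, 11.58 and 11.60 on arrays labelled MLC-SOCS-3 (probe set 10494306, chromosome 3), against 11.53, 11.64 and 11.48 on control arrays. Its difference of 0.028 ± 0.069 (adjusted p = 0.96) has a 95% interval of -0.14 to 0.20, the narrowest of the 9 probe sets.

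**Figure D5:**
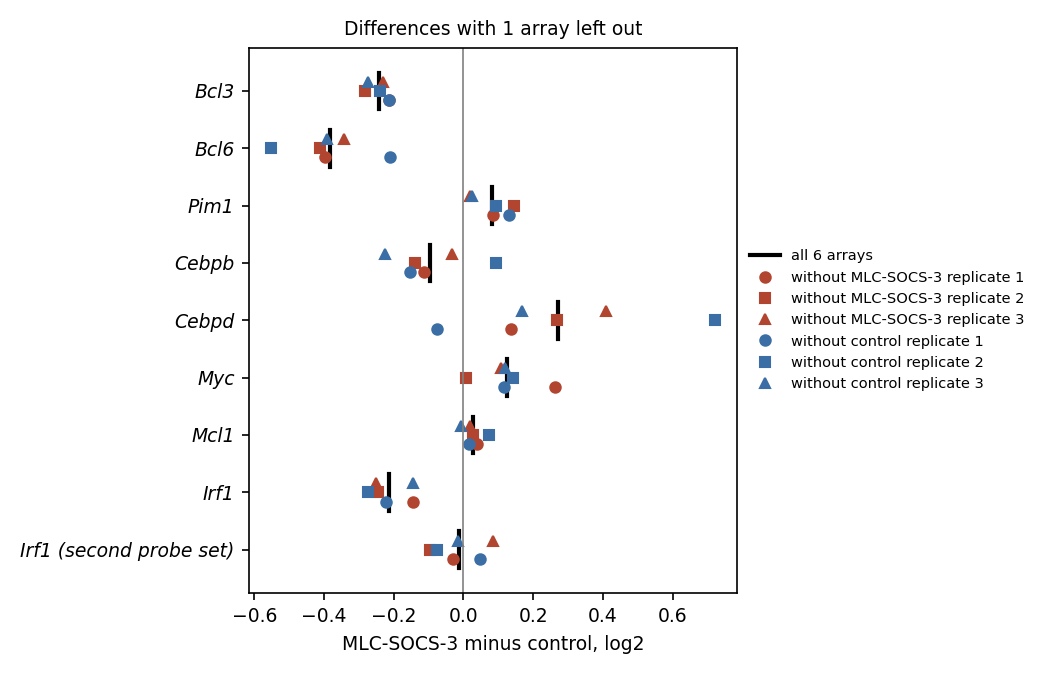
Difference in log2 units for each probe set with all 6 arrays (black bar) and with each array left out in turn, red without an MLC-SOCS-3 array and blue without a control array. Bcl3 keeps to -0.28 to -0.21, while Cebpd runs from -0.076 to 0.72.

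The JAK-STAT pathway list held receptors, kinases, STATs and regulators, and also the feedback inhibitors Socs1, Socs2, Socs3 and Cish, which are not upstream of these targets. None of its 27 measured genes passed in the fit over all probe sets. They had 15 positive and 12 negative differences and a median of 0.0037 (12 and 15, with a median of -0.012, without control replicate 2). At an unadjusted p under 0.05 the list held 4, all lower: Socs2, Cish, Socs3 and Stat3 (4.86% of all genes met this in either direction). Of these 4, only Stat3 is not a feedback inhibitor. Socs2 was called (brighter probe set, adjusted p = 0.033) only where limma was run on the 21789 probe sets with 1 symbol, with robust moderation around a mean-variance trend, among the alternatives run. Stat3, the factor that interleukin-6 activates, read 8.94, 8.95 and 8.94 on arrays labelled MLC-SOCS-3, against 9.19, 9.35 and 9.18 on control arrays (difference -0.30 ± 0.072, adjusted p = 0.79). Other STAT and cytokine targets, 25 measured, gave 7 positive and 18 negative differences with a median of -0.043 and none passing. Hif1a, the hypoxia factor, was at 0.18 ± 0.075 (SE), the AP-1 subunit Fosl2 at -0.18 ± 0.074 and Egr1 at -0.67 ± 0.30. Of these 25, 14 were highest on control replicate 2, where 15.5% of all genes were, and without that array 11 were negative, with a median of 0.049. Paralogues and partners of the 8 genes, 30 measured, gave 10 positive and 20 negative differences with a median of -0.049, and none reached an unadjusted p under 0.05. The members with the smallest p were Mycl at -0.20 ± 0.11, the stress-induced C/EBP relative Ddit3 at -0.21 ± 0.12, Cebpg at 0.13 ± 0.070 and Bcl6b at -0.31 ± 0.21.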

How the data were processed

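Per the submitters' processing notes, the authors made the deposited log2 intensities with RMA in Affymetrix Expression Console, of unstated version. RMA corrects background, equalises the arrays' distributions and summarises each probe set, and it compresses folds at low and high levels. Per the labels, cRNA was made from 300 ng of total RNA. There are no detection calls or counts, so the number of arrays limits the precision. Any pair of arrays shared at most 36 identical values, so none is a duplicate.

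Values were used as deposited. Of 35557 probe sets, 21789 had 1 symbol, 1621 several and 12147 were unnamed here; symbols were updated through Entrez identifiers (21698 matched, GRCm38.p6). A gene was represented by its probe set with the highest mean. Groups were compared with limma 3.58.1 in R 4.3.3 (lmFit, eBayes, two-sided, Benjamini-Hochberg over all probe sets, threshold 0.05); differences are MLC-SOCS-3 minus control. In 5 simulations with 35557 probe sets, 85.6% of 2-fold and 33.4% of 1.5-fold changes were called. The simulated noise was normal, independent between probe sets and set by the moderated SDs of the fit. All 200 planted changes lay above the median level. Real noise need not be so regular, and Cish, 2.58-fold lower, was not called in the real data (limma adjusted p = 0.73). The shares therefore do not say which changes these 6 arrays could detect. Sequences are from RefSeq. The 8 genes, the 7 pathway lists, the marker lists and the naming rule (every member, up to 4 genes per list by smallest p, the 3 most alike genes by Pearson r for members ranging over at least 0.5) were chosen with earlier results of these data known. Fkbp5 and Ddit4 were chosen after their values were seen.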

Additional observations from a re-analysis of the deposited data

How the results depend on the processing

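No member was called under any of the 13 alternatives that refit the table, whose smallest adjusted p for a member was 0.65. Over all probe sets, where the fit with all arrays called 0, leaving out 1 array gave 0 to 1 calls (the 1 was an unnamed probe set, without control replicate 2), testing 1 probe set per gene gave 1 (Casp12), and testing only the 21789 probe sets with 1 symbol, with robust moderation around a mean-variance trend, gave 11, among them Socs2 (adjusted p = 0.033) and Casp12 but no member. Of 126 alternative values for the 9 member probe sets, 119 kept their sign and stayed uncalled. Many of these were fixed in advance. The trend, block and permutation settings and those that test fewer probe sets leave the difference itself unchanged, so its sign could not turn. The signs that could change are those with an array left out, another normalization or the mean of 2 probe sets. In these the signs of Bcl3, Bcl6, Pim1, Myc and the brighter Irf1 probe set held. Left-out arrays turned Cebpb (range -0.22 to 0.093), Cebpd (-0.076 to 0.72), Mcl1 (-0.0063 to 0.073) and the second Irf1 probe set (-0.095 to 0.083), and that probe set also turned to 0.0052 with arrays centred on their median and 0.0012 with quantile normalization. Centring moved the median of all probe sets from -0.0094 to 0.010. With the replicate number as a block, limma called 0 probe sets and 0 members. Arrays of the same number did not deviate together (correlations of deviations of -0.026, -0.018 and -0.043 for numbers 1, 2 and 3), and no array correlated best with its own number. These values show no pairing by number, but with 3 arrays a group they cannot exclude one. With 3 arrays a group, the exact permutation test cannot go below p = 0.1, and at these sizes a p that misses the threshold does not show that values did not differ. The counts of the pathway lists without 1 control array were chosen after seeing the data, and no array labelled MLC-SOCS-3 was left out for them.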

Other observations

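Control replicate 1 held the highest value of 25.3% of all 19938 genes, against 13.5% to 16.6% for each of the other 5 arrays, and it was the array on which Bcl3 and Bcl6 were highest. Macrophage markers were lowest on that array for 9 of 14, where 12.1% of all genes were. They were highest on control replicate 2 for 7 of 14, where 15.5% of all genes were. Fibroblast markers had mean log2 levels of 9.30 to 9.74 on arrays labelled MLC-SOCS-3 and 9.34 to 9.39 on control arrays, and adipocyte markers 6.92 to 7.08 and 6.71 to 6.81. Neutrophil markers, 1 of 10 above the median probe set, stood at 4.53 to 4.68 on arrays labelled MLC-SOCS-3 and 4.48 to 4.71 on control arrays. Endothelial markers were at 8.60 to 8.71 and 8.69 to 8.73, Schwann cell markers, 4 of them measured, at 6.80 to 6.92 and 6.88 to 6.93, and the 2 measured red blood cell genes at 6.24 to 6.34 and 6.26 to 6.40, in the same order of groups. Their part in the values of the 8 genes was not tested.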
